A study of Bos indicus with 6 samples.

Results

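Serpins, tissue inhibitors of metalloproteinases (TIMPs), cystatins and SPINK inhibitors are protein families that block proteases, and their transcripts were measured here in the isthmus, the segment of the oviduct next to the uterus. Genes were chosen by symbol, as the SERPIN genes of clades A to I, TIMP1 to TIMP4, the CST, CSTA and CSTB cystatins, and the SPINK genes. SERPINH1, which encodes a collagen chaperone, was left out, and no other serpin was left out for what it acts on, so the term inhibitor genes is used here for family members. The choice took 50 of the 24616 rows of the gene table, with 31 serpins, 4 TIMPs, 8 cystatins and 7 SPINK genes.

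The libraries came from 6 healthy multiparous Nelore cows (Bos indicus), 1 library per cow and 3 cows in each of the groups LF/LCL and SF/SCL, and the comparison addresses how the hormonal milieu around ovulation relates to transcripts of the oviduct. All cows were pre-synchronised with a prostaglandin F2α analog (PGF) and a GnRH agonist, and later received a new progesterone device together with estradiol benzoate. They received PGF again at device removal and once more after it, ovulation was induced with GnRH, and tissue was taken on day 4. In the LF/LCL group, which was managed to ovulate a larger follicle and form a larger corpus luteum, PGF was also given at device insertion, and GnRH followed device removal by 42 h. The interval was 30 h for SF/SCL. Within LF/LCL the authors sequenced the animals ranked at the top, and within SF/SCL those at the bottom, so the cows are the extremes of a larger set. The ages of the cows are not given in the sources used here.

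Serpins trap serine proteases by presenting a bait loop that the protease cleaves, after which the serpin changes shape and holds the enzyme. TIMPs bind the active site of matrix metalloproteinases (MMPs), cystatins block cysteine cathepsins, and SPINK proteins carry Kazal domains that act on trypsin-like enzymes. In the oviduct such inhibitors are found in the luminal fluid and in the connective tissue, where proteases act on the extracellular matrix, clotting and fibrinolysis, and the surface of gametes and embryos.

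The values are normalised read counts, which are reads per gene divided by a size factor for each library. The libraries held 25652651, 28659214 and 29836083 reads in LF/LCL cows 617, 79 and 527, and 34193164, 25472906 and 23899117 reads in SF/SCL cows 856, 489215 and 97. Values are given below in this order of the cows. The library of SF/SCL cow 489215 stood apart from the rest. It held the highest value of the 6 libraries in 36.7% of all genes tested and the lowest in 35.7%. In 7997 genes the LF/LCL cows did not overlap with cows 856 and 97, and in 65.1% of these genes cow 489215 was within or past the LF/LCL range. The median residual SD of the limma fit was 0.435 on the log2 scale with all 6 cows and 0.184 without this cow, which was singled out from these same values. Fits are therefore given with all cows and without cow 489215 for most of the genes below.

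Markers of the tissue's cell types also parted the cows. The summed smooth muscle markers, 11 found of 12 and led by ACTA2, were at 960470.3, 894853 and 842805 in the LF/LCL cows and at 396324, 1287985 and 455064 in the SF/SCL cows. The summed fibroblast markers, 11 of 11 and led by DCN, were at 111011, 140717 and 146251, and at 70041, 102282 and 70455. The smooth muscle sum was low in cows 856 and 97 and highest in cow 489215, where ACTA2, TAGLN, DES, CNN1 and SMTN were highest, while MYH11, MYLK, SYNPO2, SYNM and CALD1 were below every LF/LCL cow in all 3 SF/SCL cows. The fibroblast sum was below every LF/LCL cow in all 3 SF/SCL cows, by the least in cow 489215. In that cow DCN was within the LF/LCL range, and LUM, PI16 and PDGFRB were the lowest of all 6 cows. The secretory and general epithelial markers, 14 of 15 and led by OVGP1, summed to 60171, 45920.1 and 40778, and to 332624, 114736 and 395456. OVGP1, the oviduct-specific glycoprotein, made up most of this sum in cow 856 (271794) and cow 97 (325158) and was at 729.6 in cow 489215. MSX1 of this list went the other way, at 1721, 1228 and 1342, and at 125, 2739 and 461, and ELF3 was also below every LF/LCL cow in cows 856 and 97. The ciliated cell markers, 14 of 15 and led by CAPS, with PIFO at 0, summed to 46838, 44101 and 37688, and to 66184, 34603 and 72253. Fewer cells of a type and less RNA per cell cannot be told apart in these bulk samples, and the part of the tissue's makeup in the results for the inhibitors was not tested.

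The remaining marker lists were less even in what moved. The mesothelial list, 8 of 8, summed to 2958, 3132 and 3434, and to 28237, 3559 and 27614.5, carried by MSLN and WT1. Other genes of this list went the opposite way: LRRN4 was at 283, 412 and 175, and at 3.80, 5.33 and 16.3, and BNC1 at 68.0, 97.6 and 73.8, and at 23.5, 16.0 and 19.5, both lower in every SF/SCL cow. The nerve and Schwann cell list, 7 of 7, summed to 5764, 4520.4 and 3323, and to 32432.5, 9165 and 29206.5, carried by S100B, while CDH19 and NGFR were lower in every SF/SCL cow and the median log2 fold change of the list was -1.09. The mast cell list, 4 of 5 and led by KIT, summed to 674, 1015 and 1296, and to 4939.5, 486 and 4741.5, carried by KIT. HDC of the same list was lower in every SF/SCL cow (0 to 4.34, against 8.37 to 25.5), CPA3 had overlapping groups, with a log2 fold change of -1.21, and MS4A2 was at or below 4.34 in all cows. Endothelial markers, 9 of 10 and led by VWF, summed to 14849, 18512 and 14374, and to 11726, 18076 and 12438. Cows 856 and 97 were below every LF/LCL cow in this sum, and cow 489215 was within their range. The median log2 fold change of the endothelial list was -0.29 with all cows and -0.59 without cow 489215. Leukocyte markers, 13 of 13 and led by LCP1, summed to between 4897 and 9031. Plasma protein genes of the liver, 11 of 11 and led by APOA1, with FGA at 0, summed to between 568.8 and 984, and erythrocyte genes, 4 of 6 and led by HBB, to between 0.9 and 6.7.

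The inhibitor genes held 0.246%, 0.291% and 0.26% of the reads in the LF/LCL cows and 0.195%, 0.252% and 0.185% in the SF/SCL cows. Of the 50 genes, 25 passed the filter and were tested: 16 serpins, 4 TIMPs, 5 cystatins and 0 SPINK genes. A further 7 were at 0 in every library, 11 had a mean at or below 5, and 7 had an SD over the 6 libraries at or above their mean. The genes at 0 were SERPINA10, SERPINA3-1, SERPINA3-6, SERPINA4, SERPINA7, CST8 and CST11, for which 0 reads in a library allows up to 3, for counting error alone. SERPINA10, SERPINA4 and SERPINA7 are best known as plasma proteins made in the liver.

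With all 6 cows, limma with Benjamini-Hochberg adjustment over 15387 genes called 0 of the 25 inhibitor genes at an adjusted p under 0.05, as for all genes tested (0%). At an unadjusted p under 0.05 it took 4 of 25 (16%), against 8.66% of all genes. The edgeR test on reads called 0 of the 25 (3 at an unadjusted p under 0.05, or 12% against 8.7% of all genes). DESeq2 called 1, SERPINI2, among 416 of all genes (2.7%), with 4 at an unadjusted p under 0.05 (16%, against 11.5% of all genes). On simulated data DESeq2 made more false calls than limma and edgeR, a limit on all its calls given below. The LF/LCL and SF/SCL cows did not overlap in 3 of 25 genes (12%), against 18.1% of all genes tested, which were SERPING1, higher in LF/LCL, and SERPINI2 and SERPINB2, higher in SF/SCL. The number that did not overlap was 7 (28%) without LF/LCL cow 617, against 26.7% of all genes, and 5 (20%) without cow 79, 856 or 97, against 21.8%, 25.1% and 24.9%. It was 3 (12%) without cow 527, against 22.7%. At an unadjusted p under 0.05, limma took 5 of 25 without cow 617, against 5.91% of all genes. It took 2 of 27 without cow 79 and 0 without cow 527, 856 or 97, against 3.94%, 4.32%, 6.87% and 6.84% of all genes. For a single gene, an exact permutation test of 3 against 3 cannot give a two-sided p below 0.1.

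Without cow 489215, limma called 10 of 26 inhibitor genes (38.5%), against 18.2% of 15495 genes tested. In LF/LCL 8 of these 10 were higher (among them SERPINA1, SERPINA5, SERPINF1, SERPING1, TIMP1, TIMP2 and CSTB) and in SF/SCL the other 2 (SERPINI2 and TIMP4). The LF/LCL cows did not overlap with cows 856 and 97 in 12 of the 25 genes (48%), against 52% of all genes tested. In these 12 genes, cow 489215 was past the LF/LCL range in 5, within it in 4 and between the groups in 3. Over all 7997 such genes it was past that range in 4130, within it in 1080 and between the groups in 815. It was within or past the range of cows 856 and 97 in 1972 of the 7997 genes and 0 of the 12. Leaving out any of the other 5 cows gave 0 called inhibitor genes, and also 0 called among all genes tested. The 10 calls thus describe LF/LCL against cows 856 and 97 alone.

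The median log2 fold change, SF/SCL over LF/LCL, was -0.11 over the 25 genes (17 below 0 and 8 above) and -0.02 over all genes tested. Without cow 489215 it was -0.27 over 26 genes. By family it was -0.11 for serpins, -0.14 for TIMPs and -0.21 for cystatins with all cows, and -0.22, -0.29 and -0.55 without cow 489215. With any other cow left out, the median ranged from -0.23 to -0.04 over all inhibitor genes and from -0.37 (without cow 79) to -0.11 for serpins. The cystatin median was -0.36 without cow 617 and -0.00734 without cow 856, and the TIMP median was -0.25 without cow 527 and -0.06 without cow 79. The cystatin median was above 0 with edgeR (0.00597), with DESeq2 (0.0461) and without cow 97 (0.0886), and the TIMP median was above 0 without cow 97 (0.00158).

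**Figure D1:**
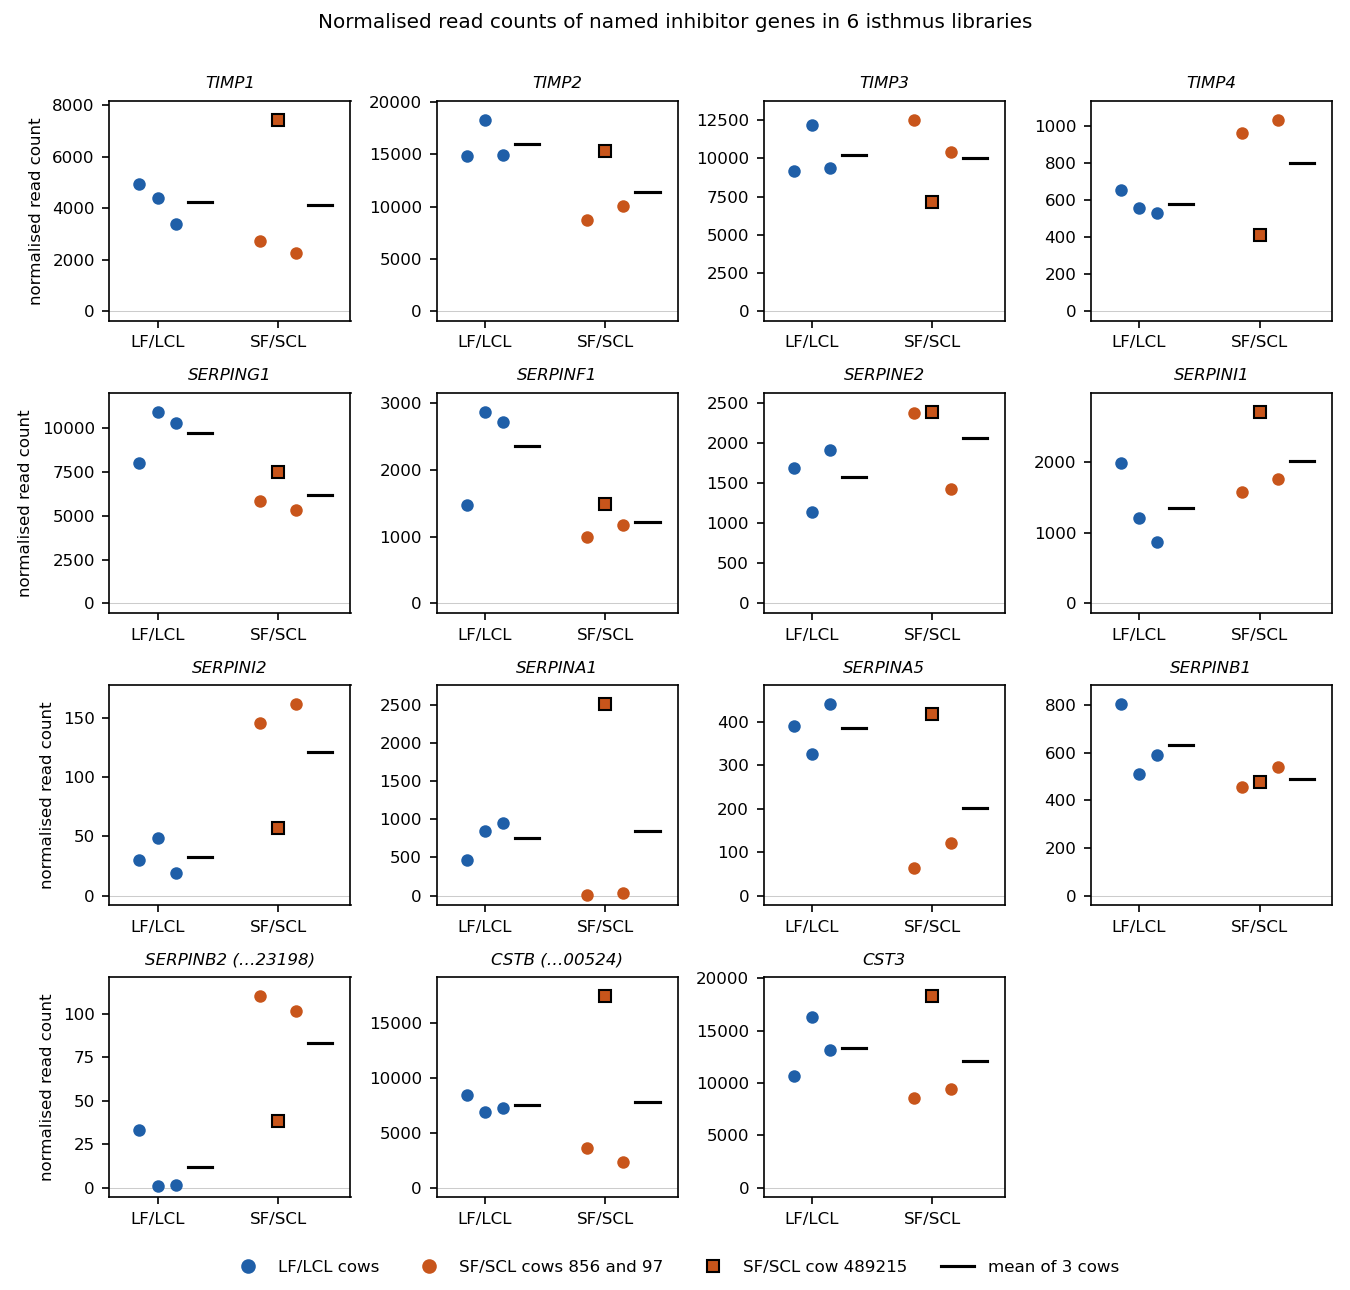
Normalised read counts of named inhibitor genes in each of the 6 isthmus libraries, each dot 1 cow, with LF/LCL in blue, SF/SCL in orange, SF/SCL cow 489215 as a square, and a short line at the mean of 3 cows. Each panel has its own linear axis, and in TIMP1, SERPINE2, SERPINI1, SERPINA1, CSTB and CST3 the square is above all other cows.

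TIMP1 and TIMP2, secreted inhibitors of a broad range of MMPs, were low in the same SF/SCL cows. TIMP1 was at 4942, 4403 and 3381 in the LF/LCL cows, and at 2725, 7436 and 2278 in the SF/SCL cows. Cows 856 and 97 were below every LF/LCL cow, and cow 489215 was above them all, at 1.75 times the LF/LCL mean. Its log2 fold change was -0.22 (SE 0.46, limma adjusted p = 0.921) with all cows and -0.75 (SE 0.17, limma adjusted p = 0.0323) without cow 489215. Without cow 856 it was -0.03 and without cow 97 it was 0.10, so that its sign rested on single SF/SCL cows.

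TIMP2, which also takes part in activating the MMP2 proenzyme at the cell surface, was at 14838, 18257 and 14876 in the LF/LCL cows and at 8709, 15332 and 10011 in the SF/SCL cows. Cow 489215 was within the LF/LCL range, and the other SF/SCL cows were below it. With all cows the log2 fold change was -0.53 (SE 0.26, limma adjusted p = 0.649), and -0.77 (SE 0.13, limma adjusted p = 0.0119) without cow 489215, a level 1.71-fold higher in LF/LCL.

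TIMP4 lay on the other side. It was at 653, 558 and 528 in the LF/LCL cows, and at 961, 411 and 1032 in the SF/SCL cows. Cows 856 and 97 were above every LF/LCL cow and cow 489215 was below them all. The log2 fold change was 0.36 (SE 0.38, limma adjusted p = 0.868) with all cows and 0.79 (SE 0.13, limma adjusted p = 0.013) without cow 489215, when SF/SCL was 1.72-fold higher. It was 0.12 without cow 97 and 0.17 without cow 856.

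TIMP3, which binds to the extracellular matrix itself and also blocks ADAM proteases, was at 9174, 12170.2 and 9349.9 in the LF/LCL cows and at 12503, 7164 and 10386 in the SF/SCL cows. The groups overlapped, and their means differed by less than the SD within either group (10231 ± 1681 against 10017 ± 2688, SD, n = 3). The log2 fold change was -0.06 (SE 0.26) with all cows and 0.17 (SE 0.15) without cow 489215, both with a limma adjusted p above 0.05 (0.967 and 0.492), and it ranged from -0.23 to 0.08 with any other cow left out. The summed TIMP counts were 29608, 35388 and 28134 in the LF/LCL cows and 24897, 30343 and 23706 in the SF/SCL cows.

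The proteases that TIMPs block were compared as a list of 18 MMP genes, of which 9 were tested. In 8 of the 9 the log2 fold change was below 0, with a median of -0.85, which was -0.46 without cow 856 and -0.40 with no filter. It was -0.94 without cow 489215, when limma called 5 of 9 (55.6%, against 18.2% of all genes), all higher in LF/LCL. With all cows limma called 0, DESeq2 called 2 (MMP14 and MMP24, 22.2% against 2.7% of all genes), and 4 of 9 did not overlap between the groups (44.4%, against 18.1% of all genes), all higher in LF/LCL. MMP7, which the filter left out for an SD at or above its mean, was higher in every SF/SCL cow, at 10.5, 7.51 and 11.4 against 46.3, 20.0 and 140, a mean 7.01-fold higher. MMP2, a gelatinase, was at 10524, 11121 and 14847 in the LF/LCL cows and at 5327, 8707 and 6395 in the SF/SCL cows. MMP14, a membrane-bound MMP that cleaves the MMP2 proenzyme together with TIMP2, was at 5195, 6209 and 5203, and at 2932, 1572 and 2832. Both were lower in every SF/SCL cow than in any LF/LCL cow, cow 489215 included, where TIMP1 and TIMP2 had not been low. Their log2 fold changes were -0.85 (SE 0.25, limma adjusted p = 0.433) and -1.23 (SE 0.28, limma adjusted p = 0.372), with DESeq2 adjusted p of 0.106 and 0.0187. Without cow 489215 they were -1.04 and -0.94, with limma adjusted p of 0.0113 and 0.0042. MMP24, at 38.7, 46.9 and 50.9 against 12.2, 2.66 and 13, had the lowest log2 fold change of those whose groups did not overlap, -2.40 (SE 0.62, adjusted p = 0.405 with limma and 0.0112 with DESeq2), and -1.77 without cow 489215 (limma adjusted p = 0.022). The fibroblast markers had a median log2 fold change of -0.75. Of these 11 genes, 4 (FBLN1, LUM, PI16 and PDGFRB) were also below every LF/LCL cow in every SF/SCL cow. The part of the tissue's makeup in the MMP values was not tested.

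**Figure D2:**
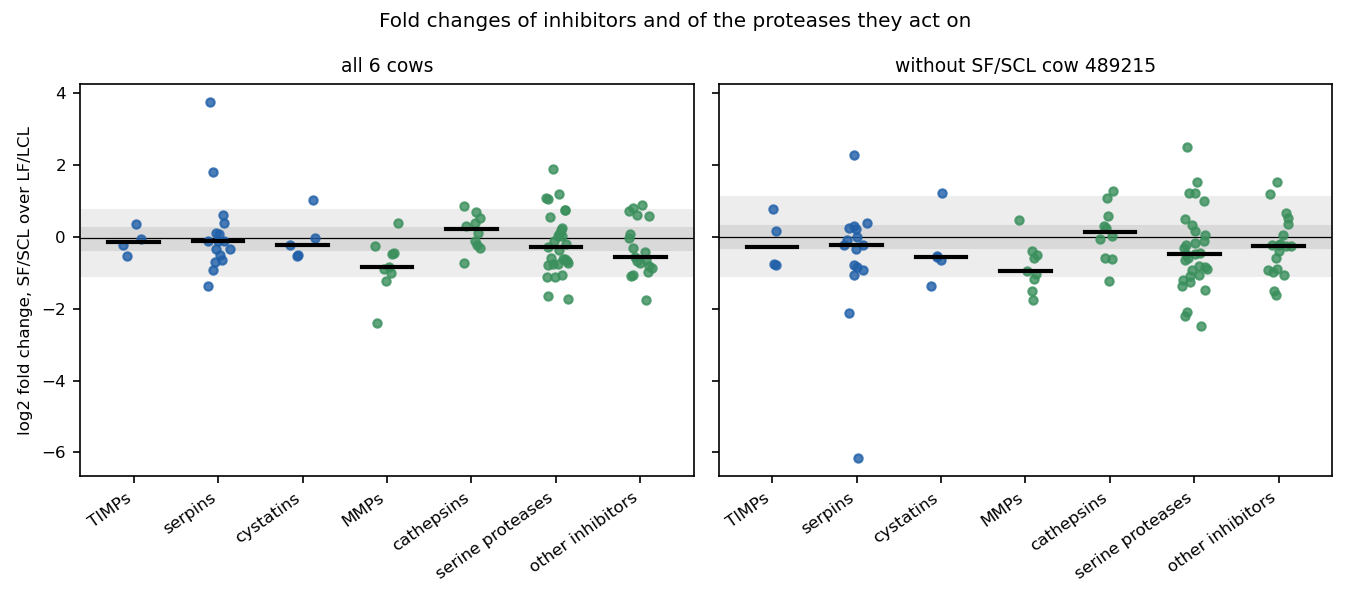
Log2 fold changes, SF/SCL over LF/LCL, of each tested TIMP, serpin and cystatin (blue) and of each tested gene of the comparison lists (green), with all 6 cows on the left and without cow 489215 on the right. Thick bars are medians, the grey bands span the 25th to 75th and the 5th to 95th percentile of all genes tested, the thin line is their median, and the MMP median is at -0.85 on the left and -0.94 on the right.

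Among serpins that act outside the cell, SERPING1 and SERPINF1 were lower in the SF/SCL cows, with cow 489215 on the same side or at the edge. SERPING1, the C1 inhibitor of the complement and contact systems, was at 8002, 10919.9 and 10272 in the LF/LCL cows and at 5824, 7485 and 5320.2 in the SF/SCL cows. All SF/SCL cows were below all LF/LCL cows, and cow 489215 was the highest of them. The LF/LCL mean was 1.57-fold higher, a log2 fold change of -0.65 (SE 0.22), which limma did not call (adjusted p = 0.469). Without cow 489215 it was -0.79 (SE 0.15, limma adjusted p = 0.0164).

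SERPINF1 encodes PEDF, a serpin that blocks vessel growth and inhibits no protease. It was at 1483, 2869 and 2725 in the LF/LCL cows and at 1001, 1492 and 1175 in the SF/SCL cows. LF/LCL cow 617 and SF/SCL cow 489215 were nearly level, and the remaining cows kept the groups apart. The log2 fold change was -0.91 (SE 0.31, limma adjusted p = 0.482) with all cows and -1.06 (SE 0.29, limma adjusted p = 0.0491) without cow 489215. SERPINF2, the plasmin inhibitor, lies directly beside SERPINF1 in the RefSeq annotation of the assembly NIAB-ARS_B.indTharparkar_mat_pri_1.0 and reached at most 9.39 in any cow.

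SERPINE2, or protease nexin 1, which acts on thrombin and urokinase at cell surfaces, was at 1692, 1139 and 1908 in the LF/LCL cows, and at 2369, 2384 and 1432 in the SF/SCL cows. Its groups overlapped, with a log2 fold change of 0.38 (SE 0.30, limma adjusted p = 0.821) and of 0.25 without cow 489215, 0.16 without cow 79 and 0.62 without cow 97. SERPINE3 was lowest in cows 856 and 97 (32.7 and 22.8) and highest in cow 489215 (93.2), with LF/LCL cows between 42.2 and 70.1. Its log2 fold change was -0.33 with all cows and -0.91 without cow 489215, with limma adjusted p of 0.913 and 0.152.

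SERPINI1, neuroserpin, an inhibitor of tissue plasminogen activator, was at 1973, 1204 and 867 in the LF/LCL cows and at 1572, 2697 and 1759 in the SF/SCL cows. LF/LCL cow 617 exceeded cows 856 and 97, so the groups overlapped, and the log2 fold change was 0.62 (SE 0.36, limma adjusted p = 0.726), and 0.39 without cow 489215 (limma adjusted p = 0.44). It was 0.34 without cow 527 and 0.93 without cow 617. SERPINI2, also called pancpin, was at 30.4, 48.8 and 19.3 in the LF/LCL cows, and at 146, 57.2 and 161 in the SF/SCL cows. All SF/SCL cows were above all LF/LCL cows, cow 489215 by a small margin, and the SF/SCL mean was 3.70-fold higher. Cow 489215 held 43 reads and LF/LCL cow 79 held 52, so this margin rested on their size factors. The log2 fold change was 1.82 (SE 0.56), with an adjusted p of 0.442 from limma and of 0.411 from edgeR. With DESeq2 the adjusted p was 0.0369, and with limma it was 0.0174 without cow 489215, at a log2 fold change of 2.29 (SE 0.43). In the RefSeq annotation 2 protein-coding genes lie between SERPINI1 and SERPINI2.

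SERPINA1, which encodes alpha-1-antitrypsin, the inhibitor of neutrophil elastase, had the widest range of the serpins with a mean above 100. It was at 468, 848 and 947 in the LF/LCL cows, and at 2.28, 2509.6 and 30.3 in the SF/SCL cows. Cow 856 held 3 reads and cow 97 held 28, against 447 to 1078 reads in the LF/LCL cows, while cow 489215 held 1885 and was at 3.33 times the LF/LCL mean. With all cows its SD exceeded its mean, so that it was not tested under the main filter, and under the filter on the mean alone its log2 fold change was -3.50 (SE 2.25, limma adjusted p = 0.744). Without cow 489215 it was -6.16 (SE 0.89, limma adjusted p = 0.00824), with a mean 46.2-fold higher in LF/LCL.

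SERPINA5, the protein C inhibitor, which acts on several clotting and sperm proteases, had a like order of the cows. It was at 391, 327 and 441 in the LF/LCL cows, and at 63.8, 418 and 120.3 in the SF/SCL cows. Cow 489215 lay within the LF/LCL range and cows 856 and 97 far below it. With all cows the log2 fold change was -1.37 (SE 0.67, limma adjusted p = 0.647), and -2.12 (SE 0.30, limma adjusted p = 0.0079) without cow 489215, a mean 4.20-fold higher in LF/LCL. Without cow 856 it was -0.77. SERPINA1 and SERPINA5 belong to a run of clade A genes in the RefSeq annotation, in the order SERPINA10, SERPINA6, SERPINA1, SERPINA11, SERPINA12, SERPINA4 and SERPINA5, with 1 other protein-coding gene between SERPINA11 and SERPINA12. The other genes of the run were at 0 or had a mean of at most 3.58. The clotting inhibitors SERPINC1 (antithrombin) and SERPIND1 (heparin cofactor II) were low in all cows, between 16.7 and 42.2 and between 9.12 and 29.3, with overlapping groups.

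**Figure D3:**
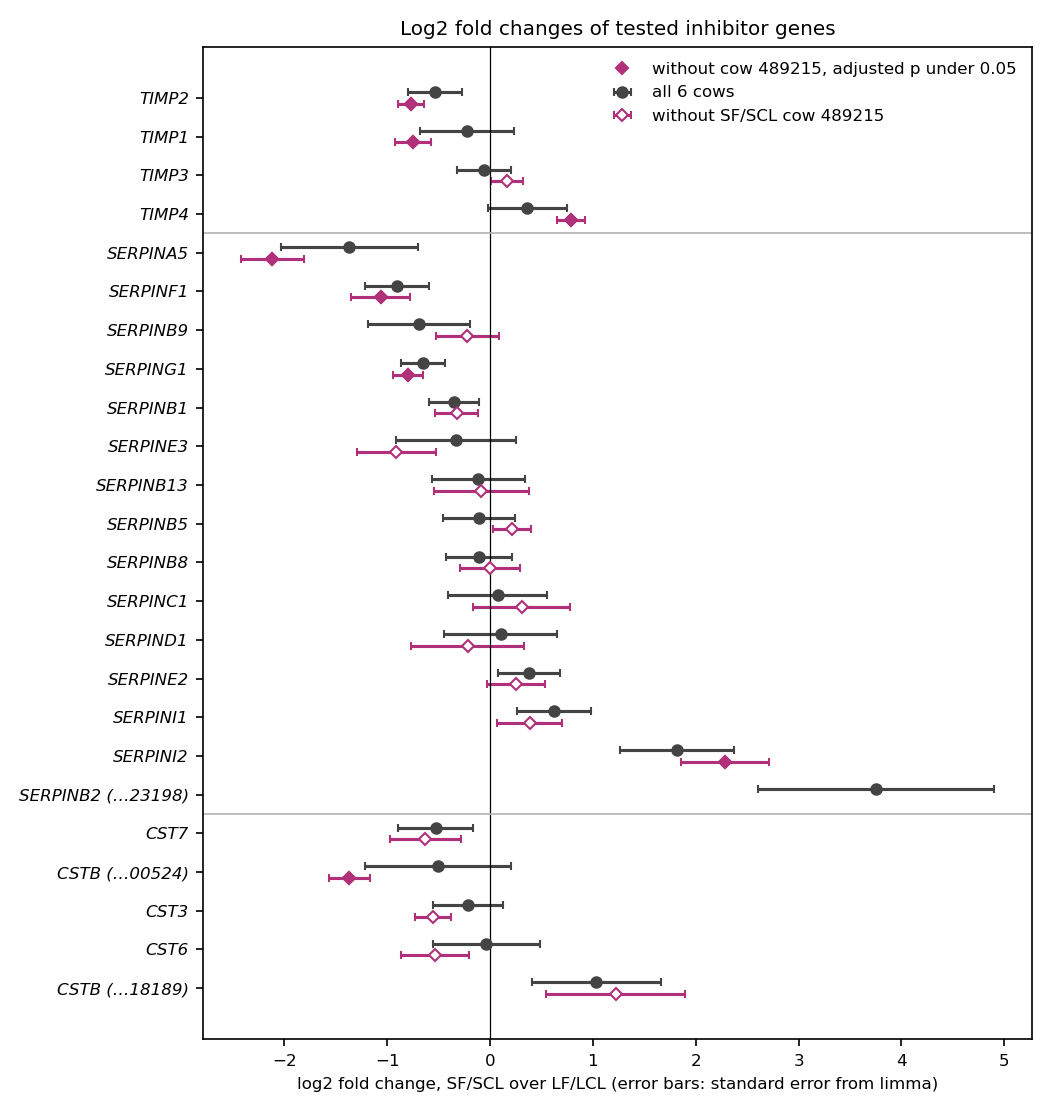
Log2 fold changes, SF/SCL over LF/LCL, of tested inhibitor genes with all 6 cows (grey circles) and without SF/SCL cow 489215 (diamonds), with standard errors from limma; filled diamonds have an adjusted p under 0.05. SERPINB2 was not tested without cow 489215, and SERPINA1, at -6.16 without that cow, is not drawn since it was not tested with all cows.

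The clade B serpins lack a signal peptide of the usual kind and act mostly inside cells. Of 11 rows, 6 were tested, limma called 0 of them with all cows (1 at an unadjusted p under 0.05, or 16.7% against 8.66% of all genes), and without cow 489215 it called 0 of 5, against 18.2% of all genes. SERPINB2, or PAI-2, an inhibitor of urokinase, was at 33.5, 0.939 and 1.76 in the LF/LCL cows, and at 110.1, 38.6 and 102 in the SF/SCL cows. Its log2 fold change of 3.75 (SE 1.15) was not called by limma (adjusted p = 0.442). It was the highest of the 15387 genes in this fit, whose filter left out genes with an SD at or above their mean. With a pseudocount (the constant added before the log) of 0.5 or 5 it was 3.99 or 2.81, and with edgeR 2.80. LF/LCL cow 617 held 32 reads and cow 489215 held 29, so the separation of the groups rested on their size factors, while cows 79 and 527 held 1 and 2 reads and cows 856 and 97 held 145 and 94. Without cow 489215 its SD exceeded its mean and it was not tested.

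SERPINB10, also called bomapin and known from bone marrow, was also highest in cows 856 and 97, at 32.4, 0 and 0 in the LF/LCL cows and at 115, 38.6 and 197 in the SF/SCL cows. Cows 617 and 489215 again had close read numbers, 31 and 29. Its SD was at or above its mean, and under the filter on the mean alone its log2 fold change was 4.91 (SE 1.49, limma adjusted p = 0.431). SERPINB7 was at 4.19, 7.51 and 2.63, and at 78.2, 6.66 and 19.5, high in cows 856 and 97 alone. SERPINB12 was highest in LF/LCL cow 617 (573) and at 66.6 to 177 in the others.

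The remaining clade B serpins overlapped between the groups. SERPINB1, an inhibitor of neutrophil elastase, was at 804, 511 and 588 in the LF/LCL cows and at 457, 475 and 541 in the SF/SCL cows, with a log2 fold change of -0.35 (SE 0.24, limma adjusted p = 0.786) and of -0.32 without cow 489215 and -0.16 without cow 617. SERPINB9, the granzyme B inhibitor of lymphocytes, was lowest in cow 489215 (55.9) and between 121 and 236 in the others. SERPINB5 (maspin), SERPINB8 and SERPINB13 had log2 fold changes between -0.11 and -0.10 with all cows, each with overlapping groups, and of 0.22, 0.00 and -0.09 without cow 489215. SERPINB4 and a second row of SERPINB2 (ENSBTAG00000023026) had 1 read each in all libraries together. In the RefSeq annotation SERPINB8 and SERPINB2 are neighbours, as are SERPINB5, SERPINB12 and SERPINB13.

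Of the listed proteases and receptors on the serpin side, 44 rows were found and 29 were tested. ELANE, CTSG, CMA1 and TMPRSS11E of the list had no row under these symbols. The median log2 fold change was -0.28, and it was -0.49 without cow 489215, -0.07 without cow 617 and -0.17 without cow 856. Limma called 0 with all cows (6 at an unadjusted p under 0.05, 3 in each direction, or 20.7% against 8.66% of all genes), and 8 of 31 without cow 489215, of which 5 were higher in LF/LCL and 3 in SF/SCL (25.8%, against 18.2% of all genes). DESeq2 called 3 with all cows (10.3%, against 2.7% of all genes), F2 among them. F2, prothrombin, a target of SERPINA5, SERPINC1, SERPIND1 and SERPINE2, was at 169.6, 153 and 191 in the LF/LCL cows, and at 1087, 269 and 855 in the SF/SCL cows. It was higher in every SF/SCL cow, with a log2 fold change of 1.88 (SE 0.53, adjusted p = 0.419 with limma and 0.00582 with DESeq2) and of 2.49 (limma adjusted p = 0.00205) without cow 489215. HTRA3, a secreted serine protease, was at 1425, 2679.8 and 1943, and at 953, 1077 and 693, lower in every SF/SCL cow (log2 fold change -1.13, SE 0.30, adjusted p = 0.405 with limma and 0.0345 with DESeq2), and its log2 fold change was -1.26 without cow 489215 (limma adjusted p = 0.0258). KLK11 was also lower in every SF/SCL cow but low in all (1.33 to 17.6). ST14, matriptase, and F3, tissue factor, had overlapping groups, with log2 fold changes of -0.12 and 0.02 (limma adjusted p = 0.937 and 0.994). Without cow 489215, which held the highest ST14 value, limma called ST14 at -0.44 (adjusted p = 0.0479) and did not call F3 at -0.30 (adjusted p = 0.631). With any other cow left out ST14 ranged from -0.21 to 0.07 and F3 from -0.17 to 0.52.

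Cystatins were led by CST3 and CSTB. CST3, cystatin C, the secreted inhibitor of cathepsins in body fluids, was at 10693, 16303 and 13103 in the LF/LCL cows, and at 8594, 18265 and 9399.5 in the SF/SCL cows. Cows 856 and 97 were below every LF/LCL cow and cow 489215 was above them all. The log2 fold change was -0.21 (SE 0.34, limma adjusted p = 0.908) with all cows and -0.55 (SE 0.18, limma adjusted p = 0.0767) without cow 489215, so it was not called in either. Without cow 79, 856 or 97 it was -0.06, -0.00734 and -0.07.

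CSTB, stefin B, an inhibitor inside cells, has 2 rows in the table. The row ENSBTAG00000000524 was at 8462, 6886 and 7252 in the LF/LCL cows, and at 3646, 17462 and 2317 in the SF/SCL cows. Cow 489215 was at 2.32 times the LF/LCL mean, and cows 856 and 97 were below every LF/LCL cow. Its mean was 7533 ± 825 in LF/LCL and 7808 ± 8387 in SF/SCL (SD, n = 3), and its log2 fold change was -0.51 (SE 0.71, limma adjusted p = 0.896), of opposite sign in the tests on reads. Without cow 489215 it was -1.37 (SE 0.20, limma adjusted p = 0.00824), a mean 2.53-fold higher in LF/LCL, and it was -0.24 without cow 856 and 0.0886 without cow 97. The row ENSBTAG00000018189 held 7 to 54 reads, with a log2 fold change of 1.03 (SE 0.63, limma adjusted p = 0.742). With a cow left out, the log2 fold change of this row ranged from 0.498 to 1.565. Whether the row takes reads from a near-identical copy of the gene was not tested.

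CST6 was highest in cow 489215 (276) and between 81.3 and 189 in the others, and CST7, a cystatin of leukocytes, was between 60.8 and 159 with overlapping groups. CSTA had 1 read in all libraries together. The summed cystatin counts were 19422, 23418 and 20709.5 in the LF/LCL cows and 12423, 36121 and 11955 in the SF/SCL cows.

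Of the cathepsins and legumain that cystatins act on, 11 listed genes had a row in the gene table and 10 were tested. CTSB, CTSL and CTSV of the list had no row under these symbols. The median log2 fold change was 0.21, and it was 0.13 without cow 489215, 0.10 without cow 617 and 0.10 under the filter on the mean alone. Limma called 0 with all cows (1 at an unadjusted p under 0.05, or 10% against 8.66% of all genes), and 5 without cow 489215 (50%, against 18.2% of all genes), of which 3 were higher in LF/LCL and 2 in SF/SCL. DESeq2 called 0 with all cows, against 2.7% of all genes. CTSK, the collagen-degrading cathepsin K, was at 6411, 7343 and 4676 in the LF/LCL cows, and at 3164, 7419.7 and 2084 in the SF/SCL cows. This order, low in cows 856 and 97 and highest in cow 489215, was also that of CST3 and CSTB, and the log2 fold change was -0.72 with all cows and -1.23 (limma adjusted p = 0.0194) without cow 489215, and -0.32 without cow 97. CTSS and CTSW, cathepsins of antigen-presenting cells and of cytotoxic lymphocytes, were higher in every SF/SCL cow, at 4639.6 to 5082 against 3684 to 4288, and at 349 to 469 against 222 to 281. Limma called neither with all cows (log2 fold changes 0.31 and 0.68, adjusted p = 0.65 and 0.496) or without cow 489215 (0.30 and 0.60, adjusted p = 0.0915 and 0.0764). CTSL2 had overlapping groups, with a log2 fold change of 0.40, of 0.24 without cow 489215 and of 0.20 without cow 617.

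The SPINK genes were scarce, and none of the 7 rows passed the filter with all cows. SPINK2, a trypsin and acrosin inhibitor known from the male tract, held 1 read in each LF/LCL cow, 49 in cow 856, 0 in cow 489215 and 25 in cow 97. Its log2 fold change under the filter on the mean alone was 2.39 (SE 1.43, limma adjusted p = 0.724). SPINK5, an inhibitor of skin kallikreins, was at 34.5, 13.1 and 100.1 in the LF/LCL cows, and at 210.4, 13.3 and 55.3 in the SF/SCL cows, with overlapping groups. It passed the filter without cow 489215, with a log2 fold change of 1.56 (SE 0.91, limma adjusted p = 0.281). SPINK7 held 1, 11 and 7 reads, and 42, 2 and 0 reads. SPINK8 had 17 reads in cow 97 and 0 in the other 5 cows, and SPINK1, SPINK4 and SPINK6 had 2 or 3 reads in all libraries together.

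**Figure D4:**
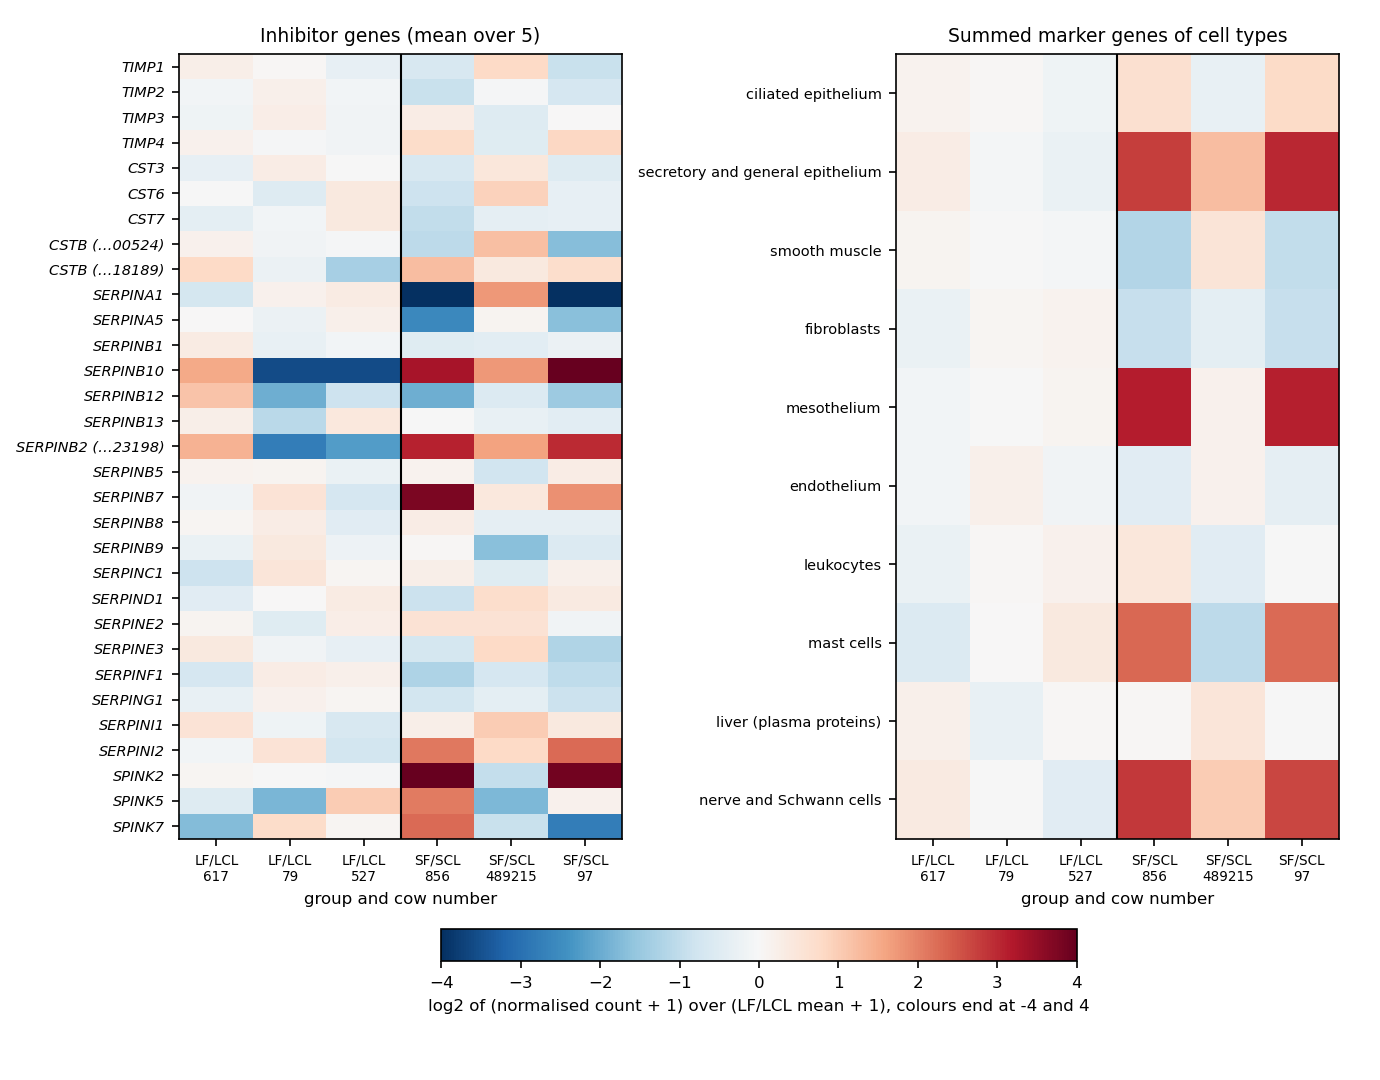
Log2 of the normalised read count plus 1 over the LF/LCL mean plus 1 in each cow, for inhibitor genes with a mean above 5 (left) and for summed markers of 10 cell type lists (right); red is above and blue below the LF/LCL mean, and colours end at -4 and 4. SERPINA1 and SERPINA5 are blue, and SERPINI2, SPINK2 and the secretory and general epithelial sum red, in cows 856 and 97.

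Protease inhibitors of other families were compared as a list, of which 30 genes had a row and 19 were tested. PZP, SLPI and TFPI were among those without a row under their symbols. The median log2 fold change was -0.55, and it was -0.25 without cow 489215 and -0.36 without cow 527. Limma called 0 with all cows (7 at an unadjusted p under 0.05, 4 higher in LF/LCL, or 36.8% against 8.66% of all genes), and 7 without cow 489215 (36.8%, against 18.2% of all genes), of which 3 were higher in LF/LCL and 4 in SF/SCL. DESeq2 called 2 with all cows, PI16 and SPINT2 (10.5%, against 2.7% of all genes). A2M, the broad protease trap alpha-2-macroglobulin, was at 20875, 25414 and 42738 in the LF/LCL cows, and at 16380.3, 13251 and 13827 in the SF/SCL cows. TFPI2, a Kunitz inhibitor of the matrix, was at 5748, 4564 and 6120.3, and at 2764, 3861 and 2755, and PI16, which is also on the fibroblast list, was at 4591, 6761 and 5693, and at 2649, 2492 and 2776. These 3 genes were lower in every SF/SCL cow, cow 489215 included, with log2 fold changes of -0.97, -0.82 and -1.09 and limma adjusted p of 0.448, 0.405 and 0.351. With DESeq2 the adjusted p were 0.0799, 0.0574 and 0.000465. Without cow 489215 the log2 fold changes were -0.91, -0.98 and -1.05, with limma adjusted p of 0.0758, 0.0073 and 0.00984. CD109, a membrane-bound relative of A2M, was at 14326, 14967 and 11993, and at 34522, 7401 and 45511, high in cows 856 and 97 and lowest in cow 489215. Its log2 fold change was 0.73 (SE 0.66, limma adjusted p = 0.848) with all cows and 1.53 (limma adjusted p = 0.00301) without cow 489215, and 0.42 and 0.22 without cows 856 and 97.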

How the data were processed

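Polyadenylated RNA of the whole thickness of the isthmus was sequenced as paired ends. The signal values were deposited by the authors as reads per Ensembl gene divided by a DESeq size factor. Before that the authors aligned filtered reads to the masked assembly UMD 3.1 with TopHat2 2.0.8 and Bowtie2 2.1.0 and counted unique matches with HTSeq 0.5.4p2. The strand setting is not given in the sources used here, so antisense and overlapping genes cannot be told apart. All 147696 values (100%) gave whole reads within 0.1 read, and reads per library were 23899117 to 34193164. Groups and cow numbers came from the sample titles, and 0 per-sample columns were unused.

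Genes were tested if their mean over the libraries exceeded both 5 and their SD, with limma 3.58.1 (trend, robust; R 4.3.3) on log2(value + 1), a scale that understates changes of low genes, with Benjamini-Hochberg adjustment over all genes tested and a threshold of 0.05. The tests were checked on simulated data, where DESeq2 made more false calls than limma and edgeR. Alternatives were edgeR 4.0.16 and DESeq2 1.42.0 on the recovered reads, TMM rescaling, pseudocounts of 0.5 and 5, other filters, and leaving out each cow. No cow number is shared between groups. Plots used Python 3.11.15 and matplotlib 3.10.9. Neighbouring genes were read from the RefSeq table, which held 39 of the 48 symbols.

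Members and lists were chosen with earlier results of these data known. Inhibitor genes were named if among the 12 with the highest mean, a TIMP, at an unadjusted p under 0.05, not overlapping between groups, or called without cow 489215. From each comparison list the 2 with the highest mean and up to 3 with the largest log2 fold change among those not overlapping were named. From marker lists, genes with the highest mean were named, and others where they moved against the sum. MMP7, SERPINB7, SERPINB9, SERPINB10, SERPINB12, SERPINE3, CST6 and the SPINK genes were singled out after their values were seen. Some genes that these rules name are not reported here.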

Additional observations from a re-analysis of the deposited data

How the results depend on the processing

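The numbers of called genes and of called inhibitor genes were 0 under limma with TMM rescaling, either other pseudocount and either other filter, and with edgeR. DESeq2 called 416 genes and 1 inhibitor gene. With each cow left out in turn, 0 to 2827 genes and 0 to 10 inhibitor genes were called, the highest values without cow 489215 and 0 without any other cow. Inhibitor genes whose groups did not overlap numbered 5 of 25 (20%) under TMM rescaling, against 17.9% of all genes, and 3 to 12 with a cow left out. Those at an unadjusted p under 0.05 numbered 3 to 5 under the other settings. This was 11.6% to 16% of the inhibitor genes tested, against 8.19% to 11.5% of all genes. With a cow left out they numbered 0 to 11, the highest without cow 489215 (11 of 26, 42.3%, against 33.9% of all genes). In 10 of the 25 tested inhibitor genes the sign of the log2 fold change turned with a cow left out or in the tests on reads. It turned for CSTB (ENSBTAG00000000524), to 0.00597 with edgeR, to 0.0461 with DESeq2 and over a range of -1.37 to 0.0886 with a cow left out. With a cow left out it also turned for TIMP1 (-0.75 to 0.10) and TIMP3 (-0.23 to 0.17), and for CST6, SERPINB5, SERPINB8, SERPINB13, SERPINC1, SERPIND1 and SERPINE3. The cause of these changes was not tested, beyond the number of cows. The median log2 fold change of TIMPs ranged from -0.29 to 0.00158 and that of cystatins from -0.55 to 0.0886 over all settings, and that of the MMPs from -0.94 to -0.40. With 3 cows a group, 1 of them apart, and 1 to 3 reads in some cows for SERPINA1, SERPINB2 and SPINK2, the size of these differences is loosely set.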

Other observations

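Plasminogen activation, the system that SERPINE2, SERPINI1 and SERPINB2 act on, held further differences, in genes chosen after their values were seen. PLAT, tissue plasminogen activator, was at 1939, 1549.7 and 1465 in LF/LCL cows 617, 79 and 527, and at 3682, 2954 and 3929.7 in SF/SCL cows 856, 489215 and 97. It was higher in every SF/SCL cow, cow 489215 included, with a log2 fold change of 1.09 (SE 0.20, adjusted p = 0.351 with limma and 0.000944 with DESeq2) and of 1.21 (limma adjusted p = 0.00395) without cow 489215. PLAU, urokinase, was at 342, 376 and 473, and at 1038, 229 and 809.6. Cows 856 and 97 were above every LF/LCL cow and cow 489215 was below them all, with a log2 fold change of 0.55 (SE 0.57, limma adjusted p = 0.863) and of 1.22 (limma adjusted p = 0.00984) without cow 489215, and of 0.13 and 0.31 without cows 856 and 97. PLAUR, the urokinase receptor, had overlapping groups, between 80.6 and 135.

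SPINT1 and SPINT2, membrane-bound Kunitz inhibitors of epithelial serine proteases such as matriptase, were higher in every SF/SCL cow. SPINT1 was at 1028, 945 and 816, and at 1466, 1194 and 1505. SPINT2 was at 14529.7, 13982 and 13612, and at 20421, 23139 and 20338. Their log2 fold changes were 0.58 and 0.60, with adjusted p of 0.471 and 0.424 from limma and of 0.151 and 0.00836 from DESeq2, and 0.68 and 0.54 without cow 489215, with limma adjusted p of 0.0162 and 0.00906. The summed secretory and general epithelial markers were also higher in the SF/SCL cows. This sum was mostly OVGP1 in cows 856 and 97, while in cow 489215 OVGP1 was at 729.6 and WFDC2 at 29355. Of the 13 markers tested, 5, EPCAM among them, were higher in every SF/SCL cow. MSX1 and ELF3 were below every LF/LCL cow in cows 856 and 97. The part of these markers in the SPINT1 and SPINT2 differences was not tested.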
